A study of Homo sapiens with 4 samples.

Results

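RNA levels of 10 genes of the Wnt pathway were examined in breast cancer cells treated with a TEAD inhibitor. The set was fixed by gene symbol as the ligands WNT5A, WNT5B and WNT7B, the secreted antagonists DKK1 and DKK3, the feedback gene AXIN2, the β-catenin gene CTNNB1 and the DNA-binding factors LEF1, TCF7 and TCF7L2. All 10 symbols were found once each among the 48162 listed genes. The cells were MDA-MB-231, an established triple-negative human breast cancer line grown in DMEM with serum, and a single line was used throughout. MGH-CP1 binds the lipid pocket of the TEAD transcription factors and blocks their palmitoylation. MGH-CP1 was given for 24 h at a dose that the labels state as 10 µM and the methods as 10 mM, and the control cells received vehicle for 24 h. Poly(A) RNA was sequenced in 2 libraries per condition, 4 in all.

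Wnt proteins are lipid-modified, secreted ligands that bind Frizzled receptors together with LRP5 or LRP6, or with the alternative receptors ROR1, ROR2 and RYK. In the canonical branch, receptor binding disables the complex that marks β-catenin for degradation, and β-catenin then joins TCF and LEF proteins on DNA. Cells limit the signal with secreted antagonists such as DKK1 and with feedback genes such as AXIN2, and in mesenchymal breast cancer cells WNT5A and WNT5B are best known for β-catenin-independent signalling in migration.

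Of the 10 genes, DKK1 and WNT5B fell after MGH-CP1 and CTNNB1 rose. These calls came from limma on log2(FPKM + 1), adjusted over the 12080 genes with a mean of at least 1 FPKM (fragments scaled to gene length and library total). LEF1 fell to 0.332 of its vehicle level, but it lay under that minimum and was tested only on fragment numbers recovered from the FPKM. WNT7B passed the fragment-based test and missed the FPKM-based one. The log2 fold change of WNT5B ranged from -0.44 to -0.16 with single libraries left out, and its call was not always kept. WNT5A was at the detection floor in every library, and DKK3 and AXIN2 had overlapping groups. Conditions are set side by side as levels in whole cultures, in which fewer cells of a type and less RNA per cell cannot be told apart. Nothing in the labels says whether libraries of a condition came from separate cultures, so the p-values measure only the spread between these libraries, which may be technical.

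By the FPKM-based limma test, 5 of the 10 genes could be tested, of which 1 was called higher, 2 lower and 2 were not called. Over all genes tested, 27.1% were called higher and 23.8% lower, so calls were common in this comparison. By limma voom on the recovered fragments, fitted to 14707 genes with at least 10 fragments in at least 2 libraries, 9 of the 10 genes were tested. CTNNB1 and WNT7B were called higher there, and DKK1, WNT5B and LEF1 lower, beside 26.8% of all genes called higher and 21.7% lower. The median log2 fold change over the 5 genes of the first fit was 0.09, beside 0.01 over all genes tested. The MGH-CP1 libraries lay wholly to one side of the vehicle libraries for 7 of the 10 genes, above them for 3 and below them for 4. Among all genes of the voom fit, 39.8% lay above and 33.7% below in the same way. With 2 libraries against 2, an exact permutation test of a single gene cannot go below p = 0.3333, and the calls depend on pooling of variance across genes by limma. Without that pooling 0 of the 10 genes were called (1 higher and 1 lower at an unadjusted p under 0.05), and limma without the filter on low values likewise called 0 (2 higher and 1 lower unadjusted).

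**Figure D1:**
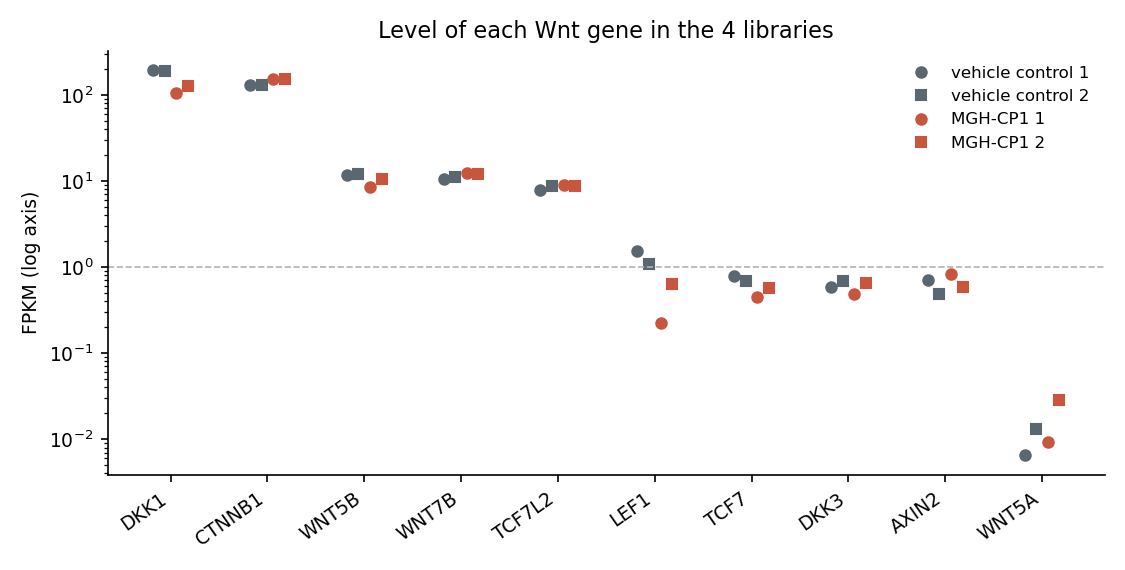
FPKM of each of the 10 Wnt genes in each library on a log axis, with vehicle control and MGH-CP1 libraries in separate colours and a point for each library. DKK1 and CTNNB1 stood above 100 FPKM in every library, while AXIN2, DKK3 and TCF7 were under 1 FPKM and WNT5A was near 0.

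**Figure D2:**
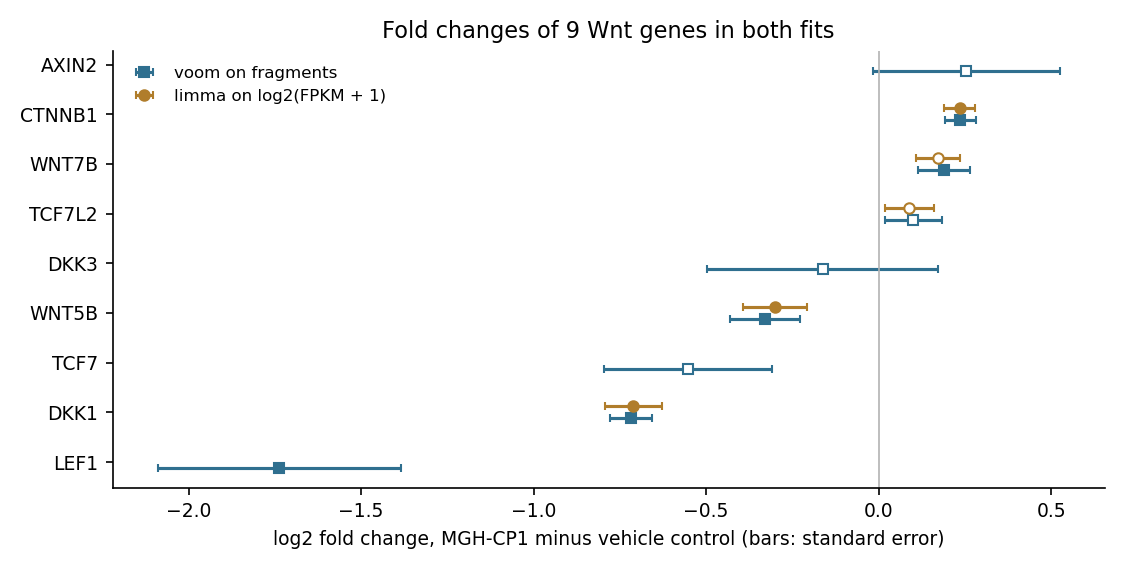
Log2 fold change of MGH-CP1 over vehicle control with its standard error for the Wnt genes that each fit tested, from limma on log2(FPKM + 1) and from limma voom on recovered fragments. LEF1 had the lowest value, -1.74, in the voom fit alone, and DKK1 lay at -0.71 and -0.72 in the respective fits.

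Promoter windows of DKK1 and LEF1 are printed because these genes had the largest falls of the 10, a choice made after their values were seen. Each run holds 250 bases before a RefSeq start of the gene on its own strand, 5′ to 3′, from GRCh38.p14. Any match to either of 2 searched motifs is in capitals. A gene can have further starts, and the windows were not compared with the deposited gene starts, which are in another build. The motifs were CTTTGA or its reverse complement TCAAAG, a core recognised by TCF and LEF factors, and GGAATG or its reverse complement CATTCC, a core recognised by TEAD factors. They share no overlapping letters in these windows. The DKK1 window is chr10:52314031-52314280, plus strand, and the LEF1 window is chr4:108166302-108166551, minus strand.
DKK1: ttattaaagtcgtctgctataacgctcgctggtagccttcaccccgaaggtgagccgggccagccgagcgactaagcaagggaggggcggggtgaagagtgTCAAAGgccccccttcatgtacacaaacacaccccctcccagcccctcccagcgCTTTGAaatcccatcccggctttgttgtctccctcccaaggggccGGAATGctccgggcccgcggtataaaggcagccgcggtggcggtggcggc
LEF1: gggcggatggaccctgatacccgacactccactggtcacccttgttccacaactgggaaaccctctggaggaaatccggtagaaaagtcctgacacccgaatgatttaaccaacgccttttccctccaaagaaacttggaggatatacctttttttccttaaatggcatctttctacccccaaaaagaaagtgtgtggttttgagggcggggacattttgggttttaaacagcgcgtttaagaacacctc

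In the DKK1 window the TCF/LEF core stood 95 bases upstream of the start as printed and 149 bases upstream as its reverse complement, and the TEAD core stood 50 bases upstream. The LEF1 window held neither set of letters, and any other start of LEF1 was not searched. RefSeq windows were found for 7 of the 10 genes, 12 windows in all, and DKK1 was the only one of the 7 with a match to either motif. Of 35093 promoter windows of the same length, 11.2% held the TCF/LEF core and 11.9% the TEAD core. GC content was 62.8% in the DKK1 window and 47.6% in the LEF1 window, beside a median of 58% over all windows. A match of these letters is a description of the window and not a measured binding site.

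DKK1 (ENSG00000107984, chr10:54074056-54077802, plus strand) encodes a secreted antagonist that occupies LRP5 and LRP6. It was at 194 and 188 FPKM in the vehicle control libraries and at 106 and 128 FPKM in the MGH-CP1 libraries. Both MGH-CP1 libraries lay well below both controls, and these values rested on 3406 to 8841 fragments per library. The mean dropped from 191 ± 3.97 FPKM to 117 ± 15.9 FPKM (SD, n = 2 each), a ratio of 0.612. The log2 fold change was -0.71 (SE 0.08, limma adjusted p = 0.000286), and 2.22% of the genes tested had a lower value. With any single library left out it stayed between -0.85 and -0.57 and was called each time. No other listed gene overlapped DKK1 in the deposited coordinates.

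The TEAD targets CYR61, CTGF and ANKRD1, used as a check of the treatment, were all called lower by limma. Their log2 fold changes were -0.75, -0.66 and -0.66, values close in size to that of DKK1. By the shape of its values over the 4 libraries, DKK1 was closest to ZNF367, CCNE2, a G1/S cyclin, and CTD-2267D19.6, at Euclidean distances of 0.0230, 0.0280 and 0.0294 in log2(FPKM + 1) after each gene's own mean was subtracted. Their log2 fold changes were -0.73, -0.70 and -0.69. This distance takes in the size of a change, so values near that of DKK1 follow from the choice. A relation between these genes and DKK1 was not tested.

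DKK3 (ENSG00000050165, chr11:11984653-12031316, minus strand) belongs to the same family but does not bind LRP5 or LRP6 in the way DKK1 does. It was at 0.578 and 0.680 FPKM in the controls and at 0.482 and 0.644 FPKM after MGH-CP1, from 23 to 46 fragments per library. The groups overlapped, since 1 MGH-CP1 library lay between the controls. The voom fit gave a log2 fold change of -0.16 (SE 0.33, limma voom adjusted p = 0.717), and the ratio of summed fragments per library depth was 0.893 with a 95% exact interval from 0.622 to 1.27. Intervals of this kind cover counting error only. The difference between DKK1 and DKK3 in log2(FPKM + 1) shifted by -0.65 between conditions, with a range over pairs of libraries from -0.78 to -0.52 (exact permutation p = 0.3333, adjusted 0.3333 over 5 pairs of genes). The added 1 shrinks the part of a gene under 1 FPKM such as DKK3, and with 0.1 added in its place the shift was -0.57.

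WNT5B (ENSG00000111186, chr12:1639057-1756409, plus strand) was 1 of the 2 Wnt ligand genes among the 10 with appreciable RNA. Its level was 11.8 and 11.9 FPKM in the controls and 8.47 and 10.5 FPKM after MGH-CP1, from 351 to 699 fragments. The controls were almost equal, and both treated libraries lay below them but apart from each other. The mean was 11.9 ± 0.0668 FPKM against 9.48 ± 1.44 FPKM (SD, n = 2 each), and the ratio of summed fragments per depth was 0.799 with a 95% exact interval of 0.731 to 0.873. The log2 fold change was -0.30 (SE 0.09, limma adjusted p = 0.0279), and the voom fit gave -0.33 (SE 0.10, limma voom adjusted p = 0.00786). This call was lost in the FPKM-based fit without vehicle control 1 (adjusted p = 0.0545), vehicle control 2 (0.0557) or MGH-CP1 1, where the log2 fold change was -0.16 (0.156), and kept without MGH-CP1 2 (-0.44, 0.00564). FBXL14 overlaps WNT5B on the opposite strand over 28173 bases and had 212 to 380 fragments per library with a log2 fold change of -0.05. Whether the counting used strand is not stated, so reads in the overlap cannot be assigned with certainty.

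WNT7B (ENSG00000188064, chr22:46316242-46373009, minus strand), a ligand that can signal through β-catenin, had higher values after MGH-CP1. It was at 10.4 and 10.96 FPKM in the controls and at 12.3 and 11.98 FPKM after MGH-CP1, from 825 to 1096 fragments. All treated values lay above all control values, with means of 10.7 ± 0.402 and 12.2 ± 0.264 FPKM (SD, n = 2 each). The log2 fold change was 0.17 (SE 0.06) with a limma adjusted p of 0.0532, which missed the threshold of 0.05. The voom fit gave 0.19 (SE 0.08, limma voom adjusted p = 0.0396), which passed it.

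WNT5A (ENSG00000114251, chr3:55499743-55523973, minus strand), the ligand most similar to WNT5B, had 1 and 2 fragments in the controls and 1 and 3 after MGH-CP1. Those numbers stand at or under the floor of 3 fragments per library, so no fold was computed. Its level was at most 0.0282 FPKM in any library. For the same reason no comparison of WNT5A with WNT5B is given, although that pair counts among the 5 pairs adjusted over. WNT5A-AS1, which overlaps WNT5A on the opposite strand, had at most 1 fragment per library.

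WNT5B and WNT7B changed places in the order of ligand levels. The ratio of WNT5B to WNT7B FPKM was 1.14 and 1.09 in the controls and 0.686 and 0.877 after MGH-CP1 (exact permutation p = 0.3333). All 19 human Wnt ligand genes summed to 30.7 and 31.6 FPKM in the controls and 31.5 and 32.6 FPKM after MGH-CP1, and these sums overlapped (exact permutation p = 0.667). WNT5B made up 38.4% and 37.6% of the sum in the controls and 26.9% and 32.2% after treatment. WNT7B made up 33.8% and 34.7% in the controls and 39.2% and 36.7% after treatment. Of the 19 ligand genes, 4 had a mean of at least 1 FPKM and 10 stayed under 0.1 FPKM in every library.

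**Figure D3:**
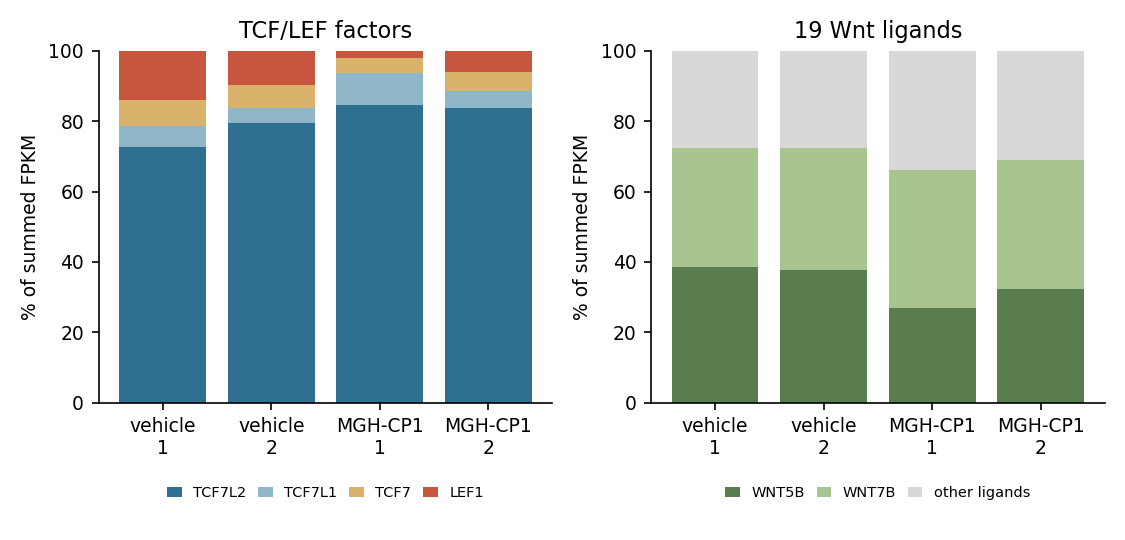
Share of the summed FPKM of all Wnt ligand genes and of the TCF and LEF genes that each gene made up, as stacked bars to 100% for each of the 4 libraries. WNT5B took 37.6% to 38.4% of the ligand sum in the controls and 26.9% to 32.2% after MGH-CP1, and LEF1 took 9.87% to 14.0% of the TCF and LEF sum in the controls and 2.11% to 6.10% after MGH-CP1.

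CTNNB1 (ENSG00000168036, chr3:41236328-41301587, plus strand) encodes β-catenin, the protein that carries the canonical signal to the nucleus and also anchors cadherins. It was at 131 and 128 FPKM in the controls and at 151 and 155 FPKM after MGH-CP1, from 10120 to 12426 fragments. The treated libraries both stood above the controls and the spread within each condition was small. The mean rose from 130 ± 1.84 FPKM to 153 ± 2.71 FPKM (SD, n = 2 each), by 17.8%, with a log2 fold change of 0.23 (SE 0.05, limma adjusted p = 0.00333). With any single library left out the value lay between 0.22 and 0.25 and was called each time. β-catenin is controlled mainly through protein stability, which RNA levels do not measure. ULK4 overlaps the end of CTNNB1 on the opposite strand, with at most 152 fragments per library. DKK1 was the highest of the 10 genes in both controls with CTNNB1 next, and this order was swapped in both MGH-CP1 libraries. The genes closest to CTNNB1 by the distance used for DKK1 were CDH24, a cadherin, PCGF3, a Polycomb group protein, and MTFR1L, at 0.0134, 0.0171 and 0.0189. A relation between these genes and CTNNB1 was likewise not tested.

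LEF1 (ENSG00000138795, chr4:108968701-109090112, minus strand) encodes a DNA-binding partner of β-catenin and is itself a canonical Wnt target. It was at 1.53 and 1.07 FPKM in the controls and at 0.224 and 0.638 FPKM after MGH-CP1. Its fragments numbered 135 and 95 in the controls and 14 and 39 in the treated libraries, so both treated libraries were lower and they differed from each other by more than the controls did in ratio. The mean was 1.30 ± 0.321 against 0.431 ± 0.293 FPKM (SD, n = 2 each), and the ratio of summed fragments per depth was 0.330 with a 95% exact interval of 0.240 to 0.447. The voom log2 fold change was -1.74 (SE 0.35, limma voom adjusted p = 0.000151), and 0.218% of the genes in that fit had a lower value. Without MGH-CP1 1 it was -0.99 with a limma voom adjusted p of 0.111, so the call rested on that library, and over the libraries left out in turn the value ranged from -2.47 to -0.99. LEF1-AS1, which overlaps it on the opposite strand, had at most 1 fragment per library.

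TCF7 (ENSG00000081059, chr5:133450402-133487556, plus strand) encodes TCF1, best known in T cells and also a Wnt target. It was at 0.795 and 0.690 FPKM in the controls and at 0.447 and 0.565 FPKM after MGH-CP1, from 43 to 108 fragments. The groups did not overlap, and the ratio of summed fragments per depth was 0.681 with a 95% exact interval of 0.528 to 0.872. The voom log2 fold change of -0.55 (SE 0.24) had a limma voom adjusted p of 0.0627 and was not called. It was called without vehicle control 2 (-0.65, limma voom adjusted p = 0.0425).

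TCF7L2 (ENSG00000148737, chr10:114710009-114927437, plus strand), which encodes TCF4 of the Wnt pathway, was the most abundant of the TCF and LEF genes. It was at 7.94 and 8.62 FPKM in the controls and at 8.98 and 8.76 FPKM after MGH-CP1, from 627 to 896 fragments. The treated libraries were both slightly above the controls, and the log2 fold change of 0.09 (SE 0.07, limma adjusted p = 0.327) was not called. RP11-139K1.2 overlaps TCF7L2 on the same strand and RP11-57H14.2 on the opposite strand. Each had 8 fragments in MGH-CP1 1 and 0 in every other library.

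The 4 TCF and LEF genes, TCF7L1 included, summed to 10.9 and 10.8 FPKM in the controls and 10.6 and 10.5 FPKM after MGH-CP1 (exact permutation p = 0.3333). Within the sum, TCF7L2 took 72.7% and 79.5% in the controls and 84.7% and 83.7% after treatment, while LEF1 took 14.0% and 9.87% and then 2.11% and 6.10%. In log2(FPKM + 1), LEF1 minus TCF7L2 shifted by -0.78 between conditions, with a range over pairs of libraries from -1.20 to -0.36. LEF1 minus TCF7 shifted by -0.48, from -0.74 to -0.23, and TCF7 minus TCF7L2 by -0.30, from -0.47 to -0.13. These sizes depend on the added 1, since LEF1 and TCF7 lay near or under 1 FPKM. With 0.1 added in its place the same shifts were -1.60, -1.02 and -0.58. On the log2(FPKM + 1) scale each of these had an exact permutation p of 0.3333, the smallest that 2 against 2 libraries can give, and an adjusted p of 0.3333 over the 5 pairs.

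AXIN2 (ENSG00000168646, chr17:63524681-63557765, minus strand) encodes a scaffold of the β-catenin destruction complex and is widely used as a readout of canonical signalling. It was at 0.701 and 0.488 FPKM in the controls and at 0.822 and 0.588 FPKM after MGH-CP1, from 44 to 76 fragments. The groups overlapped, and the libraries within each condition lay farther apart than the condition means. The voom log2 fold change was 0.25 (SE 0.27, limma voom adjusted p = 0.459), and the ratio of summed fragments per depth was 1.19 with a 95% exact interval of 0.911 to 1.55. No difference in AXIN2 was therefore detected in these 4 libraries. The counting interval, from 0.911 to 1.55, held both falls and rises and leaves out the spread between libraries. CTD-2535L24.2 overlaps AXIN2 on the same strand and had 0 fragments in every library.

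**Figure D4:**
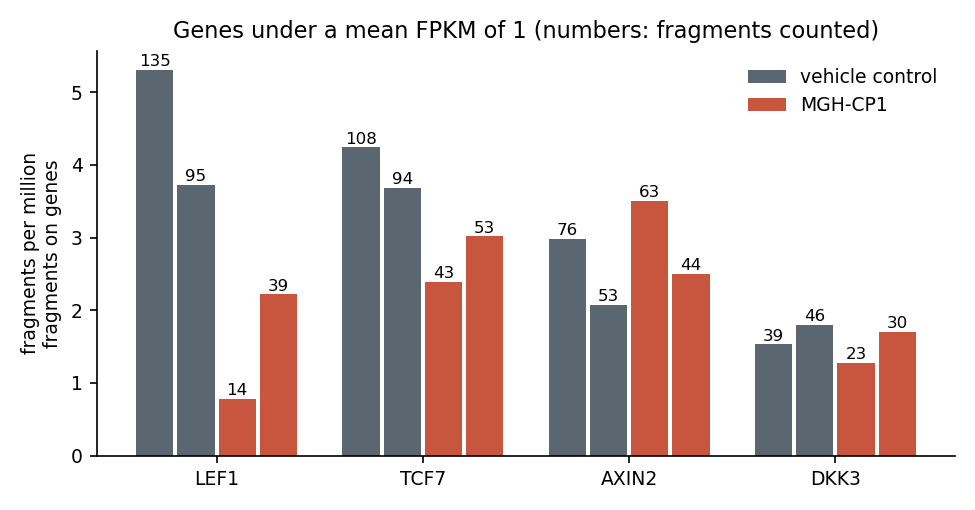
Recovered fragments of the low-level Wnt genes in each of the 4 libraries, which differed in total depth by condition. LEF1 stood at 135 and 95 fragments in the controls and 14 and 39 after MGH-CP1, whereas DKK3 and AXIN2 stayed between 23 and 76 in all libraries.

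In all 4 of the lower genes with separate groups, DKK1, WNT5B, LEF1 and TCF7, MGH-CP1 1 lay below MGH-CP1 2. The same order held for 61.3% of the 4963 genes of the voom fit that were lower in both MGH-CP1 libraries. The fragments on listed genes numbered 25455533 and 25508824 in the controls but 17997221 and 17577930 in the MGH-CP1 libraries, so depth differed by condition and its part in the results was not tested.

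Of the 99 other genes on a list of the Wnt pathway, 53 were tested by limma on FPKM, with 19 called higher, 10 lower and 24 not called, beside 27.1% of all genes tested called higher and 23.8% lower. Their median log2 fold change was 0.04, beside 0.01 over all genes tested. By the rule set for naming them, a call with an absolute log2 fold change of at least 0.5 and separate groups, 4 genes qualified on the log2(FPKM + 1) scale. On the voom scale RNF43, WNT2B and SOST, at 0.58, 0.97 and 1.08, and AMER1, at -0.54, also passed 0.5 and were called. WNT2B and SOST lay under 1 FPKM in every library. WNT2B had 26 and 16 fragments in the controls and 29 and 27 after MGH-CP1. SOST had 28 and 13 fragments in the controls, which lay far apart, and 27 and 30 after MGH-CP1. LRP5, the co-receptor that DKK1 blocks, went from 58.9 and 58.2 FPKM in the controls to 102 and 97.0 FPKM in the treated libraries, with a log2 fold change of 0.76 (SE 0.05, limma adjusted p = 2.82e-05). The Frizzled receptor FZD1 went from 13.1 and 14.4 to 23.1 and 20.8 FPKM (0.64, limma adjusted p = 0.000269), and FZD8 from 3.26 and 2.90 to 5.34 and 5.32 FPKM (0.63, limma adjusted p = 0.000658). LGR4, a receptor for R-spondins, went from 20.3 ± 0.424 FPKM to 30.4 ± 1.63 FPKM (SD, n = 2 each, log2 fold change 0.56, limma adjusted p = 0.000191). In each of these 4 genes both treated libraries stood above both controls, and each was called with any single library left out. Without the filter on low values the limma adjusted p was 0.0895 for FZD1, 0.0611 for FZD8 and 0.060 for LGR4, and without pooled variance it was 0.0593 for LRP5 and higher for the others.

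The other pathway genes are given by role from limma on FPKM unless voom is named, and those named here were chosen after their values were seen. The genes tested per role, here and in the next paragraph, are few. Their counts are a description beside the 27.1% called higher and 23.8% called lower over all genes tested. Among receptors and co-receptors, 12 of 16 were tested, and 4 were called higher and 4 lower. The lower ones included FZD2, with a log2 fold change of -0.39, and the WNT5A receptor ROR1, with -0.35, while LRP6, the other co-receptor bound by DKK1, was not called at 0.09 (limma adjusted p = 0.295). Both tested genes of ligand processing were called higher, PORCN, which attaches the lipid to Wnt proteins, at 0.41 and WLS, which carries them to the surface, at 0.20. Of the ligands outside the 10, 2 of 16 were tested and WNT9A was called higher at 0.42. Among genes of R-spondin signalling and receptor turnover, 3 of 9 were tested and LGR4 and RNF43 were called higher.

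Of 13 further antagonists, only KREMEN1, a DKK1 receptor, reached 1 FPKM, and its log2 fold change of 0.27 was not called by limma (adjusted p = 0.0553) but was called by limma voom (adjusted p = 0.00709). Limma voom also called SOST, an LRP5 and LRP6 antagonist under 1 FPKM, higher at 1.08 (adjusted p = 0.028). The 11 destruction complex genes were all tested, with APC called lower at -0.28 and 10 not called, and limma voom also called AMER1 lower at -0.54 (adjusted p = 0.0025). Of the signal transducers 8 of 9 were tested, with 5 called higher and 1 lower, DVL1 and CSNK1D among the higher at 0.44 each. Of the nuclear partners 9 of 12 were tested, with 5 called higher and 1 lower, the co-repressor TLE3 among the higher at 0.40. Of the feedback and target genes 5 of 10 were tested and 3 were called lower, SP5 at -0.33, MYC at -0.21 and CCND1 at -0.19. Limma voom called MYC and CCND1 lower, did not call SP5 (adjusted p = 0.0541) and called CD44 higher at 0.12 (adjusted p = 0.0207). With any single library left out, fewer genes of the list were called in each direction, as was so over all genes tested. The log2 fold change of FZD2 then lay between -0.43 and -0.34 and that of ROR1 between -0.42 and -0.28.

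**Figure D5:**
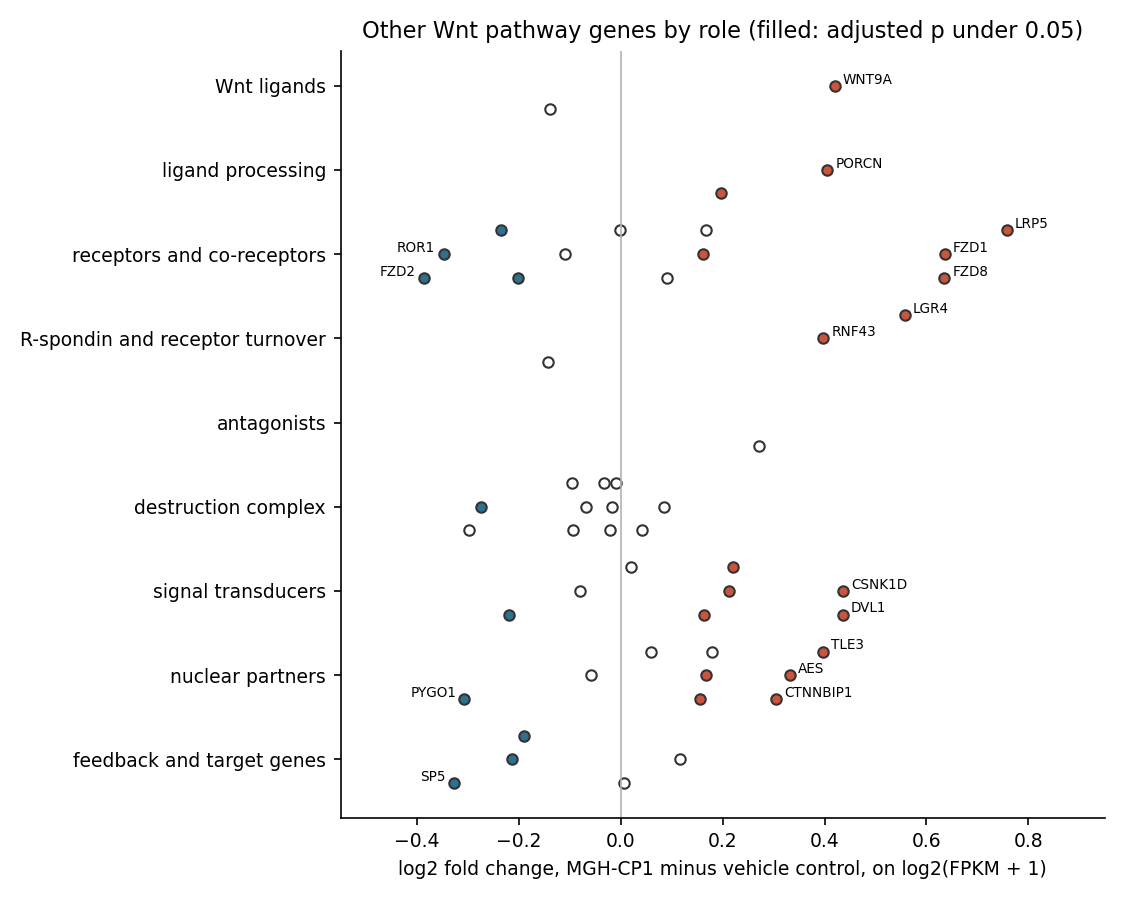
Log2 fold change of MGH-CP1 over vehicle control on the log2(FPKM + 1) scale for the 53 tested genes of the Wnt pathway list, in rows by role, with filled points for limma calls (red higher, blue lower) and open points for genes not called. LRP5 at 0.76 lay farthest to the right and FZD2 at -0.39 farthest to the left.

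The cell identity was checked with marker genes. The mesenchymal markers VIM, CD44, AXL, CAV1 and MSN were at 149 to 389 FPKM, and AXL and CAV1 were called lower after MGH-CP1. Of 6 luminal markers, ESR1, PGR and FOXA1 were near 0. CDH1 was under 1 FPKM, with 45 and 36 fragments in the controls and 56 and 49 after MGH-CP1. Limma voom called CDH1 higher, with a log2 fold change of 0.90 (adjusted p = 0.0107). GATA3 was at 5.11 and 5.65 FPKM in the controls and 4.17 and 4.84 FPKM after MGH-CP1 and was not called. KRT19 was called higher with a log2 fold change of 0.84 by limma. The leukocyte markers PTPRC and CD3E and the endothelial markers CDH5 and VWF were at or near 0, and CD14 was called higher at no more than 4.07 FPKM. The summed level of the luminal list went from 269 and 276 FPKM in the controls to 496 and 475 FPKM after MGH-CP1, and KRT19 alone made up 264 and 271 and then 491 and 469 FPKM of it. That of the mesenchymal list went from 1485 and 1486 to 1242 and 1277 FPKM. Mean AXL went from 283 to 168 FPKM and mean CAV1 from 387 to 275 FPKM. VIM and MSN were called by neither fit, and CD44 was called higher by limma voom alone. The higher KRT19 and CDH1 and the lower AXL and CAV1 moved with the falls of DKK1, WNT5B and LEF1. The part of these markers in those results was not tested.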

How the data were processed

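The authors deposited FPKM values per gene, with symbol, length and coordinates, for 4 libraries of poly(A) RNA sequenced as paired-end reads of 150 bp. The submitters' processing notes name CASAVA 1.8, STAR and hg19; the counting tool and its use of strand are not given in the sources used here. Coordinates of genes are as deposited. Multiplied by gene length, 100% of the FPKM above 0 were whole multiples of 1 step per library within 0.02 fragments, so fragment numbers were recovered and summed to 17577930 to 25508824 per library.

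Libraries were grouped by their labels. log2(FPKM + 1) of genes with a mean of at least 1 FPKM was compared two-sided by limma 3.58.1 (R 4.3.3), whose eBayes step used a mean-variance trend and 5.97 prior degrees of freedom. A gene was called at a Benjamini-Hochberg adjusted p under 0.05, adjusted across every gene of the fit. A fold change on this scale understates the change of low genes. Genes with at least 10 fragments in at least 2 libraries were also fitted with limma voom, a choice made after the data were seen. Differences between 2 genes in log2(FPKM + 1) were compared with exact permutation tests over the libraries, and fragment ratios carry exact binomial intervals at 95% (scipy 1.17.1).

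All 10 genes are named, with pathway genes called at an absolute log2 fold change of at least 0.5 with separate groups, the 3 genes nearest to the largest called rise and fall, overlapping genes and 3 TEAD targets. The genes, lists and rules were chosen with earlier results of these data known. Promoter windows came from RefSeq (GRCh38.p14), a build other than that of the deposited coordinates. The endothelial marker PECAM1 was not analysed here. Alternatives were the pseudocount, filter, scaling, replicate block, trend, sharing of variance, unit and leaving out each library.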

Additional observations from a re-analysis of the deposited data

How the results depend on the processing

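The direction of every tested fold change among the 10 genes held under all alternatives run, except DKK3, which ranged from -0.37 to 0.045 with each library left out (above 0 without MGH-CP1 1), and AXIN2, from -0.0053 (without vehicle control 2) to 0.51, neither of them called. Of the values of single named genes under alternatives, 120 kept direction and side of the threshold, 19 lost their call, 4 gained one and 2 reversed. Of the 10 genes, 1 was called higher and 2 lower by the FPKM-based test. Without a filter on low values these counts were 0 and 0 by limma (2 and 1 at an unadjusted p under 0.05), with 605 and 490 of all genes and 3 and 0 of the pathway list called higher and lower. Without sharing of variance they were 0 and 0 (1 and 1 unadjusted), with 9 and 4 of all genes and 0 and 0 of the pathway list (19 and 8 unadjusted). Limma voom on the genes of the FPKM-based test called 2 higher and 2 lower of the 10, 22 and 11 of the pathway list, and 3480 and 3113 of all genes. On the wider set of genes with enough fragments, added after seeing the data, it called 2 and 3 of the 10, LEF1 entering through the filter. Of the pathway list it called 24 and 10 there, and of all genes 3941 and 3195. At a mean of at least 5 FPKM 2 of the 10 were called higher, WNT7B joining CTNNB1 (limma adjusted p = 0.0465), beside 2434 higher and 2564 lower of all genes. Without the trend 1 of the 10 was called lower, WNT5B being lost (limma adjusted p = 0.0563), beside 3120 higher and 2644 lower of all genes. With each library left out, 1 of the 10 was called higher each time and 1 to 2 lower, 12 to 16 and 3 to 7 of the pathway list, and 2512 to 2991 and 2129 to 2549 of all genes. The pathway list fell to 12 higher calls without MGH-CP1 2, and to 5, 3 and 6 lower calls without vehicle control 1, MGH-CP1 1 and MGH-CP1 2. With a pseudocount of 0.1 the differences in log2 values became -1.02 for LEF1 and TCF7, -1.60 for LEF1 and TCF7L2 and -0.58 for TCF7 and TCF7L2, and with quantile normalization that of DKK1 and DKK3 was -0.54. Leaving out libraries gave -0.72 to -0.58 for DKK1 and DKK3, -0.64 to -0.33 for LEF1 and TCF7, -1.01 to -0.55 for LEF1 and TCF7L2 and -0.40 to -0.20 for TCF7 and TCF7L2. Whether libraries of the 2 conditions with the same replicate number were handled together is not stated (correlation of their deviations 0.0777). With the replicate block 1 of the 10 genes was called higher and 2 lower, and 3466 and 3052 of all genes, against 3273 and 2869 without it. Depth limits DKK3, AXIN2, LEF1 and TCF7, with 14 to 135 fragments per library, and WNT5A, which could not be tested.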
